A study of Mus musculus with 11 samples.

Results

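The miR-181 family is a set of mature miRNAs cut from hairpins at 3 places in the mouse genome, of which the forms from the 5′ arm share a seed. Members were taken as every entry of the small RNA tables whose name has the stem miR-181a, miR-181b, miR-181c or miR-181d, whichever arm of the hairpin it comes from. This gave 10 of the 1096 mature miRNAs listed. The 4 forms from the 5′ arm are miR-181a-5p, miR-181b-5p, miR-181c-5p and miR-181d-5p. The 6 forms from the 3′ arm are miR-181a-1-3p, miR-181a-2-3p, miR-181b-1-3p, miR-181b-2-3p, miR-181c-3p and miR-181d-3p. All 10 were listed in both tables, and 8 of them exceeded 1.5 TPM, the minimum used here, in at least 1 library.

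The libraries were made from spermatogonial progenitor cells (SPCs), germ cells of the young mouse testis kept in culture, to ask how small RNA levels differ when the RNA helicase gene Mov10 is knocked down. Control SPCs (genotype label Mov10 Vector) received the lentiviral shRNA vector without a Mov10 hairpin, called shVector. Knockdown SPCs (genotype label Mov10 knockdown) received a lentivirus expressing a hairpin against Mov10. It is taken to be shMov10-832, which the study's methods name for the RNA-seq libraries, while the genotype label of the small RNA library names no hairpin. Each group is 1 small RNA library, so no value below has a replicate error. The study's methods speak of triplicate samples for the small RNA libraries, without saying whether these were pooled. For both libraries the labels give the strain C57BL/6 and an age of postnatal day 6, while the protocol given for the other SPC libraries of the series, and the study's methods for SPC culture, name mice aged 6 to 8 days of another strain, B6;129S-Gt (Rosa) 26Sor/J, which carries a Rosa reporter allele. Both cultures were transduced in the presence of polybrene and grew on mitotically inactivated STO feeder cells, a mouse embryonic fibroblast line. A mature miRNA of a feeder cell has the same sequence as that of a germ cell, so reads of the 2 sources cannot be told apart. Small RNA counts hold no value for Mov10 mRNA, so the extent of the knockdown was not checked here, and there was no further knockdown library with another hairpin against Mov10.

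A miRNA is made from a longer primary transcript, which Drosha cuts into a hairpin and Dicer cuts into a short duplex. One strand of the duplex, the guide, is kept by an Argonaute protein and pairs with target mRNAs mainly through its seed, while the other strand is mostly degraded. In the miR-181 family the 5p strand is the usual guide, and miR-181a is best known for setting the sensitivity of developing T cells to antigen, whereas MOV10 is a helicase that associates with Argonaute proteins.

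The control library had a total of 10518277 reads behind its TPM values, and 9628835 of them (91.5%) were on miRNAs. The knockdown library was shallower, with a total of 3194363 reads and 2794593 (87.5%) on miRNAs. TPM here is the number of reads per 1000000 reads of the library's own total, with no correction for length, so a loss shared by all RNAs in a library does not show in it. Each read thus added 0.0951 TPM to a control value and 0.313 TPM to a knockdown value, and the detection limit of 3 reads corresponded to 0.285 and 0.939 TPM. Intervals given below are 95% intervals that cover counting error only, since each group is 1 library. Reads copied in PCR are not independent molecules, so the intervals can be too narrow even for that error.

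The mature sequences show what the family shares and where its members part. They are given 5′ to 3′ from RefSeq (GRCm38.p6), with the seed, bases 2 to 8, in capitals. The 4 5p forms were as follows.
miR-181a-5p: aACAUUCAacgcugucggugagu
miR-181b-5p: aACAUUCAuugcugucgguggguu
miR-181c-5p: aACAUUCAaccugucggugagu
miR-181d-5p: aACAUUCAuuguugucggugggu
All 4 carried the seed ACAUUCA, and none of the other miRNAs in the tables did, among the 908 of 1096 whose names matched a RefSeq mature sequence. Counted from 1 at the 5′ end and written with the miR-181a-5p base first, miR-181b-5p differed by A9U, C10U and A21G and was 1 base longer, at 24 bases. miR-181d-5p differed from miR-181a-5p at the same 3 positions and also by C12U, which was the single substitution between miR-181b-5p and miR-181d-5p. miR-181c-5p, at 22 bases, equalled miR-181a-5p with the base at position 11 left out. Every difference among the 5p forms thus lay outside the seed, and reads were assigned without a base mismatch.

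Among the 3p forms, those that carry the results were miR-181a-1-3p and miR-181c-3p, which come from different chromosomes and have nearly the same sequence.
miR-181a-1-3p: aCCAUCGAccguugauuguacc
miR-181c-3p: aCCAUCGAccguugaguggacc
They shared the seed CCAUCGA and their first 15 bases, and differed by U16G and U19G, with the miR-181a-1-3p base first. A read that ended within the shared 15 bases could belong to either, and read lengths were not examined. The seed UCACUGA was shared by miR-181b-1-3p and miR-181b-2-3p, and no 3p seed of the family was found in another of the 908 miRNAs.

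The 6 hairpins form 3 clusters of 2, each holding 1 of a or c next to 1 of b or d. Mir181a-1 (chr1:137966455-137966541, plus strand) and Mir181b-1 (chr1:137966639-137966718, plus strand) lie 97 bases apart within an intron of the noncoding gene Gm4258 in GENCODE. Mir181b-1 lies wholly in an exon of the long noncoding RNA gene A430106G13Rik on the same strand, whose first 11 bases overlap Mir181a-1. Mir181a-2 (chr2:38852735-38852810, plus strand) and Mir181b-2 (chr2:38853830-38853918, plus strand) lie 1019 bases apart. They sit in an intron of the noncoding RefSeq gene Nr6a1os and opposite an intron of Nr6a1, which encodes an orphan nuclear receptor also called germ cell nuclear factor. Mir181c (chr8:84178873-84178961, minus strand) and Mir181d (chr8:84178716-84178787, minus strand) lie 85 bases apart in an intron of a GENCODE transcript of Nanos3, on the same strand. Nanos3 encodes an RNA-binding protein needed for the survival of early germ cells. These coordinates are on GRCm38. The mature 5p sequences of a and b are each made from 2 hairpins, on chr1 and chr2, and reads on them cannot be assigned to one, whereas c and d each come from a single hairpin on chr8.

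**Figure D1:**
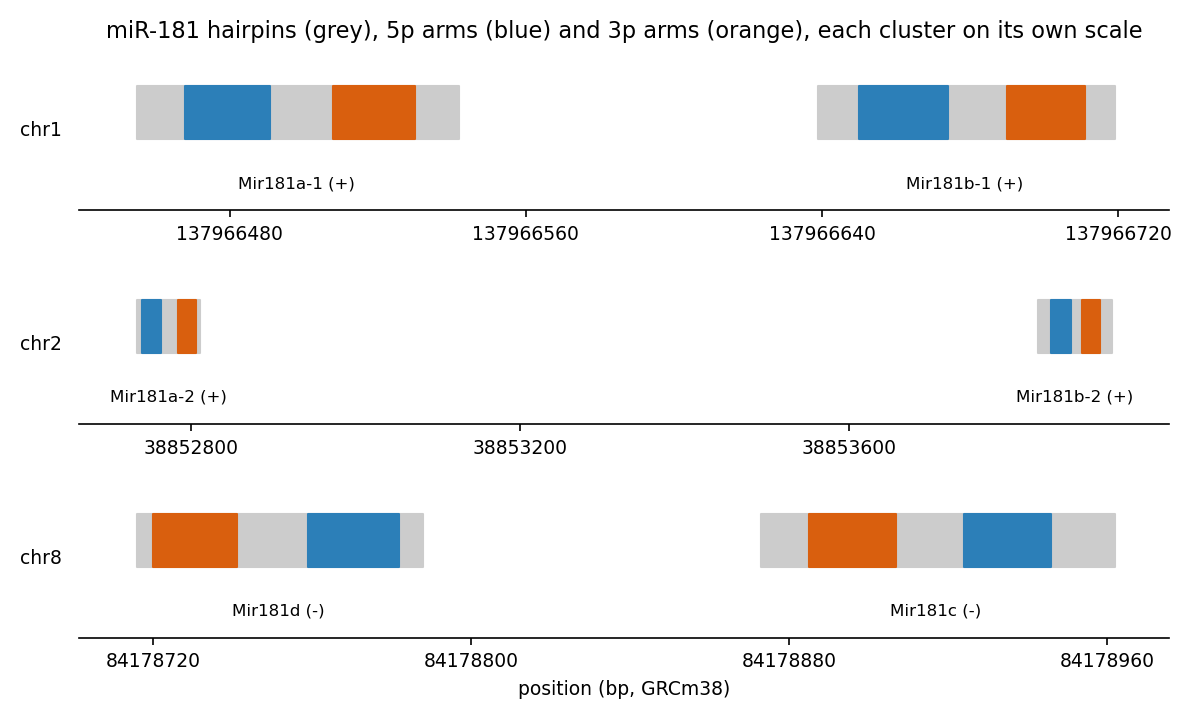
Maps of the 3 miR-181 clusters on GRCm38, with position in base pairs on each x axis and a separate scale for each cluster. Grey boxes are hairpins, blue boxes are 5p arms and orange boxes are 3p arms, and 97, 1019 and 85 bases separate the hairpins on chr1, chr2 and chr8.

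The family moved in both directions between the libraries on the TPM scale. One common total for both libraries leaves the lower depth of the knockdown library in the values, a log2 shift of -1.72. With it, 7 of the 7 members above the minimum were reduced, as were 96.6% of the 581 miRNAs above it. A miRNA was counted as reduced or raised when the ratio of TPM + 0.1 passed 1.5-fold, and 2 of the 8 members above the minimum were reduced in the knockdown, 4 were raised and 2 were within 1.5-fold. Over all 607 miRNAs above the minimum, 41.5% were reduced and 15.8% were raised. The median log2 fold change of the 8 members was 0.60, beside -0.37 for the 607 miRNAs, and the members' median turned to -1.15 with the common total, which compares the reads themselves. The 8 are not all members, and 1 of them, the raised miR-181b-2-3p, passed the minimum in the knockdown library alone, with 5 reads. With the minimum required in both libraries, 2 of 7 members were reduced and 3 raised with a median of 0.57, beside 37.5% and 14.5% of 518 miRNAs and a median of -0.25. The members' median was lower without a minimum, at 0.27 over all 10, beside -0.64 for the 1096 miRNAs. With a minimum of 10 TPM it was also 0.27 over 6 members, beside -0.30 for 393 miRNAs.

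A binomial test of the reads, exact, two-sided and conditional on the library totals, was adjusted over the 1096 miRNAs by the Benjamini-Hochberg method. It compares these libraries, not the conditions. It called 2 of the 10 members lower in the knockdown and 3 higher, and made no call for 5. Over the 1096 miRNAs it called 21.4% lower and 10.7% higher. With 1 common total, it called 7 members lower and 0 higher, beside 55.4% and 0.912% of the 1096 miRNAs. Calls with 1 common total largely follow the depth of the libraries, so whether RNA amounts differed was not tested by them. The reduced miRNAs made up 72.4% of all miRNAs past 1.5-fold with TPM, 57.0% with median-ratio scaling and 98.2% with 1 common total, so the place of a member among the other miRNAs, which hardly depends on the scale, is given beside its change.

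**Figure D2:**
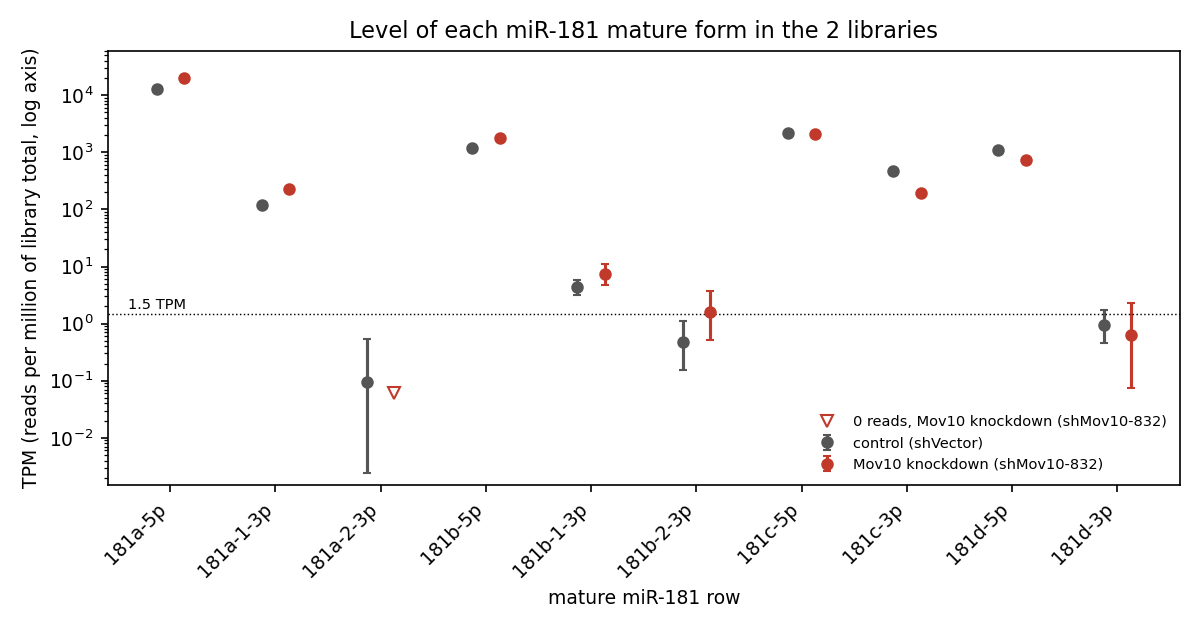
TPM of the 10 miR-181 forms (x axis) on a log axis in control SPCs (grey) and Mov10 knockdown SPCs (red), 1 library each, with exact Poisson 95% intervals that cover counting error only. miR-181a-5p lies highest in both libraries, the 3p forms of the chr2 cluster lie near or below the dotted line at 1.5 TPM, and the open triangle, drawn at an arbitrary height, marks 0 reads.

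The most abundant member was miR-181a-5p, with 136881 control reads and 63952 knockdown reads, or 13014 and 20020 TPM. It ranked 19 by TPM among all miRNAs of the control library and 10 in the knockdown library. Its log2 fold change was 0.62 (interval 0.61 to 0.63), which turned to -1.10 with 1 common total. The binomial test called it higher, with an adjusted p too small for the software to represent, and 93 of the 607 miRNAs had a larger change. It thus lay 0.99 above the median change of the 607 miRNAs on the log2 scale.

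miR-181b-5p had 12592 and 5678 reads, or 1197 TPM in control SPCs and 1778 TPM in knockdown SPCs, and ranked 72 and 56. Its log2 fold change of 0.57 (interval 0.52 to 0.62) fell just short of the 1.5-fold limit at 0.58, and the exact binomial test called it higher (adjusted p = 1.1e-126). With 1 common total its change was -1.15. It was 0.94 above the median of the 607 miRNAs, and 101 of them had a larger change. miR-181a-5p and miR-181b-5p, which share both of their clusters, were therefore close in their change although their levels differed by more than 10-fold.

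miR-181c-5p, from the chr8 cluster, had 22621 control reads and 6739 knockdown reads, or 2151 and 2110 TPM. It ranked 52 and 51. The log2 fold change was -0.028 (interval -0.067 to 0.012), and the exact binomial test made no call (adjusted p = 0.39). Its level was thus within counting error of equal on the TPM scale, was 0.038 with no call when scaled by miRNA reads, was called higher at 0.22 with median-ratio scaling and at 0.19 with TMM factors, and was lower at -1.75 with 1 common total. Relative to the median of the 607 miRNAs it was higher by 0.34, and 224 of them had a larger change. The 80 miRNAs with a minimum of 1000 TPM had a median of -0.16, which is nearer to the change of miR-181c-5p.

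miR-181d-5p, from the neighbouring hairpin, had 11589 and 2331 reads, or 1102 TPM in control SPCs and 730 TPM in knockdown SPCs, and ranked 73 and 85. Its log2 fold change was -0.59 (interval -0.66 to -0.53), just past the 1.5-fold limit, and the exact binomial test called it lower (adjusted p = 3.9e-79). It was the single 5p member that was lower on the TPM scale beyond counting error, and its sign was the same under each scaling tried, although it was within 1.5-fold with scaling by miRNA reads, by the median ratio or by TMM factors. Its distance from the median of the 607 miRNAs was -0.23, and 358 of them had a larger change. Measured against the 607 miRNAs, miR-181d-5p was therefore near the middle, while miR-181a-5p and miR-181b-5p were in the upper part. The median of -0.16 of the 80 miRNAs with a minimum of 1000 TPM lay further from the change of miR-181d-5p.

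**Figure D3:**
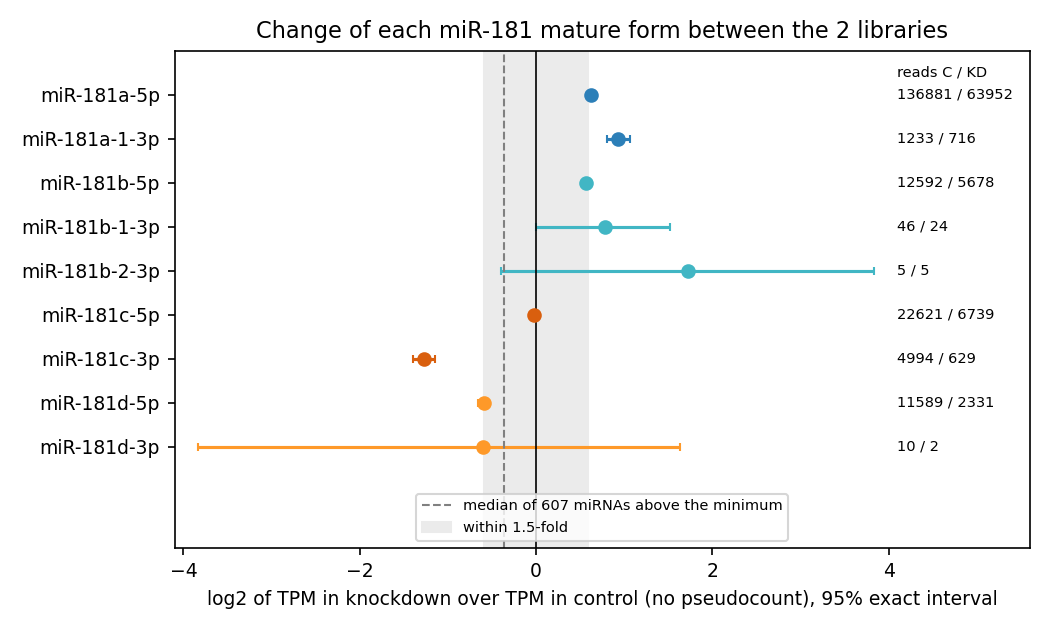
Log2 ratio of knockdown to control TPM (x axis) for the 9 miR-181 forms with more than 1 read, with exact 95% intervals from the reads listed at the right, which cover counting error only. miR-181a and miR-181b forms (blue) lie to the right of the median of 607 miRNAs (dashed, -0.37), miR-181c and miR-181d forms are orange, miR-181c-3p lies to its left at -1.27, and with 1 common total each point would move by -1.72, which puts the miR-181a-5p, miR-181b-5p, miR-181a-1-3p and miR-181b-1-3p points below 0.

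Differences between members do not depend on the library total, because each is a ratio of reads within a library. The read ratio of miR-181a-5p to miR-181b-5p was 10.9 in control SPCs and 11.3 in knockdown SPCs, and their log2 changes differed by 0.051 (interval 0.0039 to 0.098). This was the smallest difference among the 6 pairs of 5p forms. The ratio of miR-181a-5p to miR-181d-5p was 11.8 in control SPCs and 27.4 in knockdown SPCs, and their log2 changes differed by 1.22 (1.15 to 1.28), the largest of the 6. The ratio of miR-181a-5p to miR-181c-5p went from 6.05 to 9.49, a difference of 0.65 (0.61 to 0.69).

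miR-181b-5p and miR-181d-5p, which differ at 1 base, were nearly level in the control library, with a read ratio of 1.09, and stood at 2.44 in the knockdown library. Their log2 changes differed by 1.16 (interval 1.09 to 1.24). The difference between miR-181b-5p and miR-181c-5p was 0.60 (0.54 to 0.66). The intervals of all 6 pairs excluded 0, but they cover counting error only, and no replicate spread was available to set them against.

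miR-181c-5p and miR-181d-5p also differed from each other, though their hairpins are neighbours. Their read ratio was 1.95 in control SPCs and 2.89 in knockdown SPCs, a log2 difference of 0.57 (interval 0.49 to 0.64). A comparison chosen after the values were seen gives its scale. It took the most abundant form of each hairpin, where that form had at least 100 reads and a single hairpin (RefSeq placed 239 of 242 such hairpins by name), and paired neighbours on the same strand with at most 1000 bases between their hairpins. Over the other 35 pairs the median size of this difference was 0.42, with quartiles of 0.20 and 0.74. A larger difference was found in 15 of the 35, so the difference between miR-181c-5p and miR-181d-5p lay within the middle part of this range.

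The makeup of the family changed accordingly. In the control, miR-181a-5p made up 74.5% of the reads of the 4 5p forms (exact Clopper-Pearson interval 74.3 to 74.7%), and in the knockdown it made up 81.3% (81.0 to 81.5%). miR-181b-5p made up 6.86% (6.74 to 6.97%) and 7.21% (7.03 to 7.40%). The share of miR-181c-5p was 12.3% (12.2 to 12.5%) in the control and 8.56% (8.37 to 8.76%) in the knockdown. That of miR-181d-5p was 6.31% (6.20 to 6.42%) and 2.96% (2.84 to 3.08%). Reads from the chr8 cluster thus accounted for 18.6% of the 5p reads in the control and 11.5% in knockdown SPCs, and the reads with the shared seed came more from miR-181a-5p in the knockdown library.

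The 3p forms were far less abundant, and they show more of the clusters because each comes from 1 hairpin. miR-181a-1-3p, from chr1, was counted 1233 times in control SPCs and 716 times in knockdown SPCs, or at 117 and 224 TPM. On the log2 scale it changed by 0.93 (interval 0.80 to 1.07), the exact binomial test called it higher (adjusted p = 1.8e-39), and it turned to -0.78 with 1 common total. In the knockdown it ranked 136 by TPM, and 49 of the 607 miRNAs had a larger change. The form with which it shares its seed moved the other way on the TPM scale.

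That form, miR-181c-3p from chr8, was counted 4994 times in control SPCs and 629 times in knockdown SPCs, or at 475 and 197 TPM, and ranked 96 and 147. Its level changed by -1.27 on the log2 scale (interval -1.39 to -1.15), the exact binomial test called it lower (adjusted p = 2.9e-118), and its sign was the same under each scaling. Its distance from the median of the 607 miRNAs was -0.90, and 102 of them had a smaller change. The read ratio of miR-181a-1-3p to miR-181c-3p was 0.247 in control SPCs and 1.14 in knockdown SPCs, so that the order of these 2 forms turned. Their log2 changes differed by 2.20 (interval 2.03 to 2.38), which does not depend on the library totals.

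The other 3p forms rested on few reads. miR-181b-1-3p had 46 and 24 reads, or 4.37 and 7.51 TPM. Its log2 fold change of 0.77 (interval 0.0043 to 1.52) passed 1.5-fold but not the exact binomial test (adjusted p = 0.10), which called it higher with median-ratio scaling (adjusted p = 0.023) and TMM factors (0.026), not when scaled by miRNA reads (0.067). With 1 common total the change was -0.91 and the exact test called it lower (adjusted p = 0.022). Its change differed from that of miR-181a-1-3p, its neighbour on chr1, by less than counting error (0.14, interval -0.58 to 0.86). miR-181b-2-3p had 5 reads in each library, or 0.475 and 1.57 TPM, so its place among the raised miRNAs (1.53, interval -0.40 to 3.84) could not be separated from counting error (adjusted p = 0.16, exact binomial test). The direction of miR-181b-1-3p thus depended on the scaling, and that of miR-181b-2-3p was undetermined at this depth.

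miR-181a-2-3p had 1 control read and 0 knockdown reads, and no fold change is given for it. The count of 0 lies below the detection limit of 3 reads, which is 0.939 TPM in the knockdown library and not an upper bound of an interval. miR-181d-3p had 10 and 2 reads, or 0.951 and 0.626 TPM, a log2 fold change of -0.53 (interval -3.83 to 1.63). Both were below the minimum in each library. The chr2 cluster was thus represented by 6 control reads and 5 knockdown reads on its 3p forms, beside 1279 and 740 on those of the chr1 cluster and 5004 and 631 on those of the chr8 cluster. How the 5p reads of a and b divide between chr1 and chr2 was not measured by these counts.

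The arms of a single hairpin can be compared within each library. For miR-181c, the ratio of 5p to 3p reads was 4.53 in control SPCs and 10.7 in knockdown SPCs, a log2 change of 1.24 (interval 1.12 to 1.37). The 3p arm held 18.1% of the reads of the hairpin in the control (exact interval 17.6 to 18.5%) and 8.54% in the knockdown (7.91 to 9.20%). For miR-181a, with the 3p forms of both hairpins summed, the ratio was 111 in control SPCs and 89.3 in knockdown SPCs, a log2 change of -0.31 (-0.45 to -0.18). The arm ratio of miR-181a and that of miR-181c thus moved in opposite directions.

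For miR-181b the ratio was 247 in control SPCs and 196 in knockdown SPCs (log2 change -0.35), and the upper bound of the interval, 0.31, lay above 0, so the change was within counting error. For miR-181d it was 1159 and 1166, resting on 10 and 2 reads of the 3p form. To give the scale, an overview added after these values were seen took the 107 hairpin names with at least 100 reads on each arm over both libraries. Their median change was 0.020 and the median size of the change was 0.42. The change of miR-181c ranked 6 of 107 by size, 15 of 148 with a minimum of 30 reads and 2 of 39 with a minimum of 1000 reads. In the 107, the 5 larger changes were those of miR-32, miR-362, miR-99a, miR-466b and miR-335, and 3 of the 5 were toward the 5p arm.

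**Figure D4:**
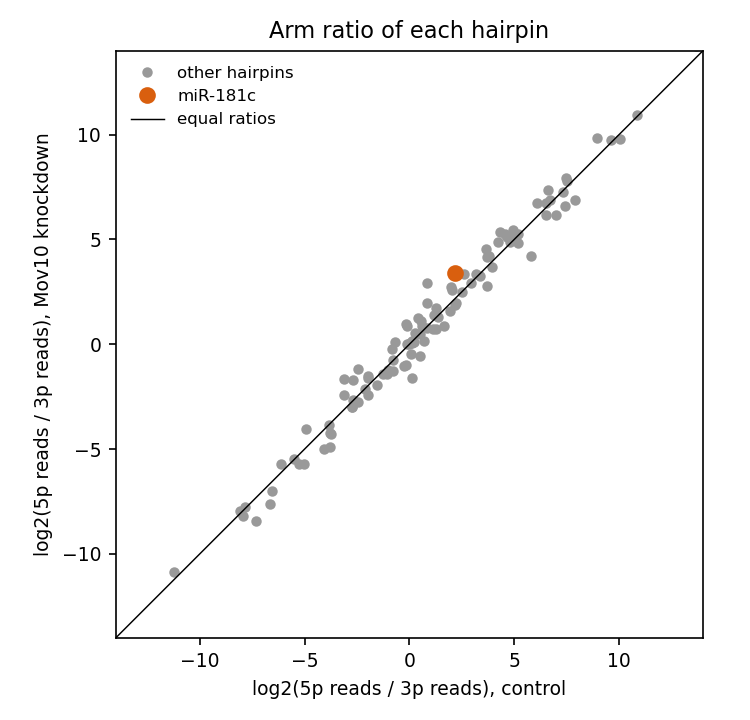
Log2 ratio of 5p to 3p reads in control SPCs (x axis) against Mov10 knockdown SPCs (y axis), 1 library each, for 107 hairpin names with at least 100 reads on each arm. The line marks equal ratios, and miR-181c (orange) lies above it, at read ratios of 4.53 and 10.7.

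Summed over members, the family took a larger part of the miRNA reads in the knockdown library. The 10 forms together took 189972 control reads and 80076 knockdown reads, which is 1.97% and 2.87% of the reads on all miRNAs. Their summed TPM was 18061 and 25068, a log2 fold change of 0.47 (interval 0.46 to 0.48), which turned to -1.25 with 1 common total. The sum was ruled by miR-181a-5p. The 4 5p forms changed by 0.50 (0.48 to 0.51), from 17463 to 24637 TPM, and by 0.053 (0.026 to 0.080) without miR-181a-5p. The 6 3p forms went the other way on the TPM scale, from 598 to 431 TPM (-0.47, interval -0.56 to -0.39), or from 0.0653% to 0.0492% of the miRNA reads. Of the 4 3p forms above the minimum, 3 were raised and 1 was reduced, beside 15.8% and 41.5% of all 607 miRNAs. Their median was 0.85, which rests partly on forms with few reads. Among the raised, miR-181b-2-3p had 5 reads in each library and passed the minimum in the knockdown alone. The exact binomial test made no call for it or for miR-181b-1-3p on the TPM scale. The reduced form, miR-181c-3p, held 4994 of the 6289 control reads and 629 of the 1376 knockdown reads of the 3p forms.

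By cluster, the sums went apart. miR-181a-5p and miR-181b-5p, from chr1 and chr2, summed to 14211 TPM in control SPCs and 21798 TPM in knockdown SPCs, and their log2 fold change was 0.62 (interval 0.60 to 0.63). miR-181c-5p and miR-181d-5p, from chr8, summed to 3252 TPM and 2839 TPM, a log2 fold change of -0.20 (-0.23 to -0.16), and with both 3p forms of chr8 added the change was -0.30 (-0.33 to -0.26). The direction of the chr8 5p sum turned to 0.056 with median-ratio scaling and 0.022 with TMM factors. The median of all miRNAs tested was -0.37, and with 1 common total both 5p sums were lower in the knockdown, at -1.10 for miR-181a-5p with miR-181b-5p and -1.92 for miR-181c-5p with miR-181d-5p.

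Other miRNA families, taken with the forms of both arms as for miR-181, give a view of how members of a family differ. The let-7 family with miR-98, known for its increase as cells differentiate, had 22 of 23 members above the minimum. Of these, 0 were reduced and 11 raised, beside 41.5% and 15.8% of all 607 miRNAs, and their median log2 fold change was 0.62. Its summed TPM was 21979 in control SPCs and 36529 in knockdown SPCs. Of the 11 members of the miR-30 family above the minimum, 3 were reduced and 0 raised, with a median of -0.17 that turned to 0.078 with median-ratio scaling and 0.045 with TMM factors. In the family of miR-15, miR-16, miR-195 and miR-497, which restrains the cell cycle, 4 of 10 were reduced and 0 raised, with a median of -0.36. This was close to all 607 miRNAs, of which 41.5% were reduced, with a median of -0.37. With 1 common total, 21 of 21 let-7 members above the minimum were reduced, as were 96.6% of the 581 miRNAs above it. The let-7 sum then changed by -0.99, in place of 0.73 with TPM.

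The miRNAs outside the family with levels most like each 5p form were found by the distance in log2(TPM + 0.1) over the 2 libraries. For miR-181a-5p these were miR-27b-3p (distance 0.39) and miR-143-3p (0.50), with log2 fold changes of 0.34 and 0.13. The levels of miR-181b-5p were closely matched by let-7e-5p (0.058) and miR-301a-3p (0.076), which changed by 0.57 and 0.58. miR-181c-5p was nearest to miR-199a-5p (0.15) and miR-351-5p (0.19), and miR-181d-5p to miR-151-5p (0.40) and miR-465a-3p (0.47). miR-181a-5p and miR-181d-5p thus had no neighbour as near as those of miR-181b-5p, and of these miRNAs, miR-143-3p and miR-199a-5p are also on the list of fibroblast markers. With 2 libraries such nearness says only that level and change were alike.

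Marker miRNAs of the cell types in the culture moved as well. Of the 11 germ and stem cell markers, led by miR-182-5p, 7 were reduced and 0 raised, and their summed TPM was 154191 in control SPCs and 111317 in knockdown SPCs, with a log2 fold change of -0.47. The list leaves out miR-21a-5p, which the study names beside miR-20a and miR-106a as a miRNA of SPC fate. It went from 51967 to 107056 TPM, or from 546601 to 341977 reads, and with it 7 of 12 were reduced, 1 was raised and the sum turned to 0.083, so the direction of the sum depends on this choice. Other miRNAs left out of the list went both ways. The exact binomial test called miR-221-3p (log2 fold change 0.88), miR-222-3p (0.24), miR-19a-3p (0.33) and miR-19b-3p (0.56) higher. It called miR-17-5p (-0.73) and miR-18a-5p (-0.64) lower. The counts for the list thus depend on which miRNAs were put on it. Of the 6 fibroblast markers, led by miR-143-3p, 0 were reduced and 0 raised, although miR-199a-3p and miR-199b-3p were raised with median-ratio scaling and with TMM factors, and their summed TPM was 27552 and 32135, a log2 fold change of 0.22. The exact binomial test called 10 of the 11 listed germ and stem cell markers lower, whereas of the fibroblast markers it called 4 higher and 1, miR-214-3p at -0.42, lower, beside 21.4% lower and 10.7% higher of all 1096 miRNAs. The fibroblast markers thus did not move together, and the 7 reduced germ and stem cell markers were 3 with median-ratio scaling and 4 with TMM factors. Of all miRNAs above the minimum, 41.5% were reduced with TPM, 31.5% with median-ratio scaling and 32.5% with TMM factors. With 1 common total both sums were lower, with or without miR-21a-5p. Fewer cells of a type and less of its RNA per cell cannot be told apart here, and the part of either in the changes of the miR-181 forms was not tested.

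The 3 markers of spermatocytes and spermatids, led by miR-34c-5p, had 9482 TPM in control SPCs and 17700 TPM in knockdown SPCs. Of these, 2 were raised, beside 15.8% of all 607 miRNAs. With 1 common total 2 were reduced, beside 96.6% of 581 miRNAs, and the sum changed by -0.82. Blood markers were low, with 276 TPM and 130 TPM over 6 miRNAs, led by miR-142a-5p in control SPCs (158 TPM, and 28.8 TPM in knockdown SPCs) and by miR-155-5p in knockdown SPCs (100.2 and 95.5 TPM). The 2 endothelial markers, led by miR-126a-5p, had 592 and 395 TPM. The liver marker miR-122-5p had 1.90 and 4.38 TPM (20 and 14 reads), the muscle marker miR-133a-3p had 2.00 and 0.939 TPM (21 and 3 reads), with no call for either by the exact binomial test, and the 2 neuronal markers, led by miR-9-5p, had 53.8 and 78.6 TPM. miR-1a-3p, the other muscle marker, was not among the 1096 mature miRNAs listed. No marker in the tables was at 0 reads in either library. Per the study's methods, SPC cultures were started from cells isolated as Thy1-positive. Whether these cell types contributed to the miR-181 reads was not tested.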

How the data were processed

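The 2 small RNA libraries were sequenced on an Illumina HiSeq instrument. Per the study's methods, the authors removed rRNA reads, trimmed adaptors and mapped reads without mismatch to mature miRNAs of miRBase with CLC Genomics Workbench. The authors deposited a read count for each mature miRNA. They also deposited TPM values, which are reads per 1000000 of 1 total per library. The submitters' processing notes name Cufflinks 2.1.1, with no role given.

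Fold changes are log2 of the ratio of TPM + 0.1, knockdown over control, and the pseudocount shrinks changes at low TPM. Intervals of fold changes and shares are exact Clopper-Pearson intervals, and those of ratios between members or arms are Wald intervals of the log odds ratio with 0.5 added to each count. Computations used Python 3.11.15, scipy 1.17.1 and, for TMM factors, edgeR 4.0.16 in R 4.3.3, and were tested on simulated data. Members, lists and tests were chosen with earlier results of these data known. The miRNAs named are the members, the 2 nearest miRNAs to each 5p form and the leading marker of each list. Other miRNAs, such as those with the larger arm changes, were named after their values were seen. Alternatives changed the scaling, the pseudocount, the minimum, the fold and the list of germ and stem cell markers. Hairpins were placed with RefSeq and GENCODE annotation of GRCm38.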

Additional observations from a re-analysis of the deposited data

How the results depend on the processing

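No paired analysis was possible because the groups hold a single library each, and depth limited the 3p forms with few reads. With 1 common total for both libraries, log2 ratios of TPM moved by -1.72, because the knockdown library is shallower, and by less with the pseudocount where reads were few. The family then turned to -1.22 for the 5p forms and -1.25 for all forms, the median of the members to -1.15, miR-181a-5p to -1.10, miR-181b-5p to -1.15, miR-181a-1-3p to -0.78 and miR-181b-1-3p to -0.91. In all, 561 miRNAs were then reduced and 10 raised, with 7 members reduced and 0 raised, and the exact binomial test called 607 miRNAs lower and 10 higher, with 7 members lower and 0 higher.

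Scaling by miRNA reads, by the median ratio and by TMM factors moved the 5p sum to 0.56, 0.75 and 0.71 and the sum of all forms to 0.54, 0.73 and 0.69. Each left 1 member reduced, miR-181c-3p, and raised 5, miR-181b-5p being added, while of all miRNAs tested 39.7%, 31.5% and 32.5% were reduced and 18.3%, 23.7% and 23.9% raised, in place of 41.5% and 15.8%. miR-181c-5p turned to 0.22 with the median ratio and 0.19 with TMM factors. With the median ratio, the exact binomial test called 5 members higher in place of 3, and 2 lower as before. Over all 1096 miRNAs it called 169 higher in place of 117, and 183 lower in place of 235. The median of the miRNAs tested was -0.30, -0.12 and -0.10 under these scalings. Without miR-181a-5p, the 5p sum changed by 0.053. Of the reads of all forms, miR-181a-5p made up 72.1% in the control and 79.9% in the knockdown.

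Without a minimum, 561 miRNAs were reduced and 186 raised, or 51.2% and 17.0% of 1096. Of the 10 members, 3 were then reduced, among them miR-181a-2-3p with 1 and 0 reads, and 4 were raised. A minimum of 10 TPM gave 157 and 53, or 39.9% and 13.5% of 393 miRNAs, with 2 of 6 members reduced and 2 raised. A 2-fold limit gave 161 and 40, or 26.5% and 6.59% of 607 miRNAs. With this limit 1 of 8 members was reduced, miR-181c-3p, and 1 was raised, miR-181b-2-3p, which had 5 reads in each library and passed the minimum in the knockdown alone. The rank of the arm change of miR-181c, with minimums of reads chosen after seeing the data, moved from 6 to 15 and 2. Pseudocounts of 0.01 and 1 kept 2 members reduced and 4 raised.

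The other families, the marker lists and the sums by cluster were rescaled as alternatives chosen after seeing the data. By miRNA reads, the median ratio, TMM factors and 1 common total, in this order, the log2 fold change of the summed TPM was 0.80, 0.98, 0.95 and -0.99 for let-7 with miR-98. For the miR-30 family it was -0.14, 0.050, 0.016 and -1.92, and for the family of miR-15 and miR-16 it was -0.42, -0.23, -0.27 and -2.20. Germ and stem cell markers gave -0.40, -0.22, -0.25 and -2.19, and with miR-21a-5p added, also after seeing the data, their TPM sum changed by 0.083. Fibroblast markers gave 0.29, 0.47, 0.44 and -1.50, and markers of spermatocytes and spermatids gave 0.97, 1.15, 1.12 and -0.82. In the same order, miR-181a-5p with miR-181b-5p gave 0.68, 0.87, 0.84 and -1.10, and miR-181c-5p with miR-181d-5p gave -0.13, 0.056, 0.022 and -1.92. With their 3p forms, miR-181c and miR-181d gave -0.23, -0.044, -0.078 and -2.02, and the 3p forms of the family gave -0.41, -0.22, -0.25 and -2.19.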
